A study of Homo sapiens with 11 samples.

Results

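The genes described here are the transcription factor ATF4, its target DDIT3 (the gene for CHOP) and 6 genes that act beside them in the stress response: ATF3, ATF5, CEBPB, CEBPG, TRIB3 and NUPR1. They were taken by name from the deposited count table, where each has 1 entry, and make up 8 of its 38021 genes. The table comes from RNA sequencing of wild-type HEK293T, a human cell line derived from embryonic kidney, with all cells collected after 6 h of treatment. The 11 conditions were vehicle (0.1% DMSO), thapsigargin (Tg, 500 nM), which empties the calcium store of the endoplasmic reticulum (ER), the compound AA147 at 10 µM, and the compound AA132 at 0.1, 0.3, 1, 3, 6, 10, 15 or 30 µM. The labels list 1 sample per condition, and the table holds 3 numbered columns for each, called libraries 1 to 3 below. Nothing says that these came from separate cultures, so p-values measure the spread between these libraries only, which may be technical. Levels are from bulk RNA, so fewer cells with a transcript and less of it per cell cannot be told apart.

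ATF4 is a basic leucine zipper (bZIP) factor whose protein is made mainly by selective translation when kinases such as PERK phosphorylate the initiation factor eIF2α, so its transcript level does not measure its protein. It switches on DDIT3 and, together with CHOP and C/EBP partners, genes of amino acid supply, transfer RNA charging and redox balance. ATF3 and ATF5 are further ATF family factors of this pathway, CEBPB and CEBPG are C/EBP factors that dimerise with ATF4, TRIB3 is a pseudokinase that binds ATF4 and CHOP and damps them, and NUPR1 is a small stress-induced chromatin protein.

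The 3 stretches below, upstream of annotated starts, are shown because they hold the stress motifs found among these genes. RefSeq windows (GRCh38.p14) of 300 bases, 250 before a start and 50 after it, were matched for 7 of the 8 genes, 16 windows in all. NUPR1 was not matched. The stretches are the parts of these windows around the match that GENCODE v44 marks as no exon on either strand, written 5′ to 3′ on the gene's strand with the match in capitals.
DDIT3: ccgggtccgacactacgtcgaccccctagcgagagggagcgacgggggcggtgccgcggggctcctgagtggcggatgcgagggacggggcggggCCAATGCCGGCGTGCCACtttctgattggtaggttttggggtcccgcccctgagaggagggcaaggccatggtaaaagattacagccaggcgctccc
CEBPG: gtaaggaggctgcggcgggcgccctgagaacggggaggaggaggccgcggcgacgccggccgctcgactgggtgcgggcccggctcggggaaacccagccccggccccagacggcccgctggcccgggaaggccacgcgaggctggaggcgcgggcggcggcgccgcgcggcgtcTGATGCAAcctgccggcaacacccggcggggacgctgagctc
ATF3: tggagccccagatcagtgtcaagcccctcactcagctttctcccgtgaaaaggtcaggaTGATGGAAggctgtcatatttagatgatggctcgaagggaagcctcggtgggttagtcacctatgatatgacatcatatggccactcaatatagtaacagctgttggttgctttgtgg
The DDIT3 stretch (chr12:57520518-57520709, minus strand) lies just before the start of the main transcript and inside an intron of a longer DDIT3 transcript. Its capitals match CCAAT and CCAC set 9 bases apart, the ER stress element without its last letter, at -100 to -83 from the start. That shortened motif was searched for after the sequence had been seen, and 0.32% of 35116 RefSeq windows hold it on either strand. The full element, which ends in CCACG, is in 0.08% of windows and in none of the 16 windows of these genes. The CEBPG stretch (chr19:33373896-33374112, plus strand) is in the first intron of the main CEBPG transcript, before a second annotated start. The ATF3 stretch (chr1:212565157-212565333, plus strand) lies before the first exon of the longer ATF3 transcripts. Both hold TGATGNAA, the core of the composite element bound by C/EBP and ATF factors, at -42 to -35 in CEBPG and -191 to -184 in ATF3, a match found in 3.62% of windows. TGACGTCA, in 1.85% of windows, and TGACGTGG, in 0.73%, were in none of the 16. TATAAA, in 11.53% of windows, was in windows of ATF4, CEBPB and ATF3. The full and shortened forms of the ER stress element overlap by construction, and a match describes letters only.

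Library totals ran from 32.27 to 37.96 M counts, and the second lowest was 36.36 M. Within a condition the spread between libraries exceeded counting noise, with a chi-square statistic per degree of freedom of 4.48 to 59.4 over 33 pairs (median 7.56). The 7 HEK293T markers looked at had counts in all 33 libraries. Their summed level was 2594.6 to 3156.5 CPM in vehicle (counts scaled to a common library total), 1980.8 to 2055.7 CPM under Tg and 2295.9 to 2480.8 CPM with 30 µM AA132, both below every vehicle library. In each other condition it overlapped the vehicle range. Of 9 markers of blood, endothelial, liver and connective tissue cells, 8 had medians between 0 and 0.0272 CPM, and COL1A1 was at 19.7 to 49.9 CPM. The sum of the 9 was nearly all COL1A1. It was 40.1 CPM or more in every vehicle library and 19.8 to 20.6 CPM under Tg. With 6 µM AA132 and each higher dose it stayed below vehicle, between 24.7 and 38.7 CPM.

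In vehicle, ATF4 was by far the most abundant transcript of the set per unit length, at 328.3 ± 37.9 CPM per kb (SD, n = 3, as for every group below). The level of ATF3 per kb was 65.8, of TRIB3 11.4, of CEBPG 9.83, of DDIT3 8.7, of ATF5 5.41, of CEBPB 2.77 and of NUPR1 0.106. Under Tg the level of ATF4 per kb was 691.8, and TRIB3, at 168.9, stood beside ATF3, at 156.8. DDIT3 reached 107.0 CPM per kb under Tg, CEBPG 34.6 and CEBPB 18.4. These levels use the length of the canonical GENCODE v44 transcript, which for NUPR1 is 5.291 kb, and other transcripts of a gene would shift them. All other levels below are CPM of 1 gene across conditions.

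**Figure D1:**
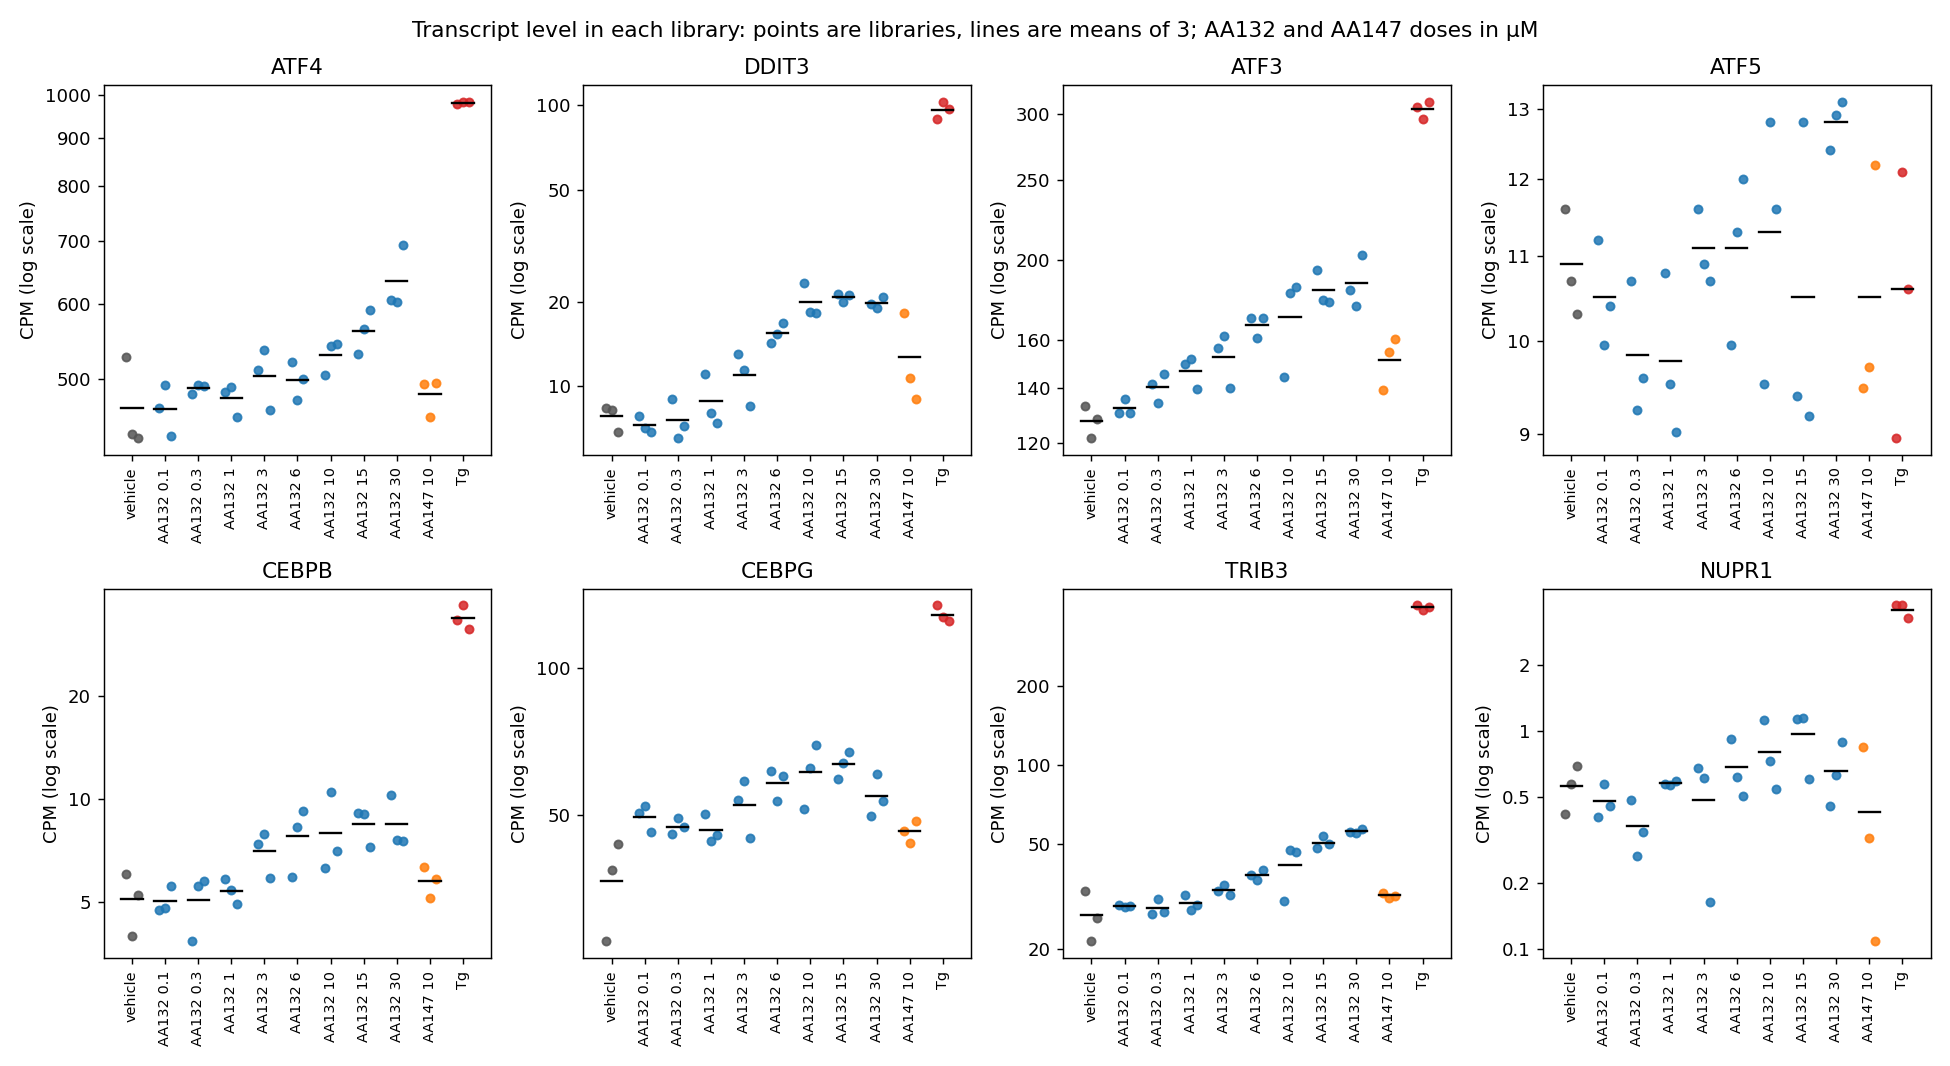
Level of each of the 8 genes in each of the 33 libraries, in CPM on a log axis, by condition (AA132 and AA147 doses in µM). Points are libraries and lines are means of 3. For 7 genes the Tg libraries lie above every other library, and ATF5 shows no such separation.

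The change under Tg was the largest for TRIB3 and DDIT3 and reached every gene of the set but ATF5. In edgeR's quasi-likelihood test, 7 of the 8 genes were higher than in vehicle at an adjusted p under 0.05, where 16.2% of the 17793 genes tested were higher. The same 7 genes had all 3 Tg libraries above all 30 other libraries, as did 10.3% of genes tested. The median log2 fold change was 2.25 over the 8 genes and 0.005 over all genes. Under Tg the summed markers of HEK293T and of other cells, the latter nearly all COL1A1, were also below vehicle, as given above. Their part in these changes was not tested.

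ATF4 (chr22:39519695-39522683, plus strand, GENCODE v44 on GRCh38, as for the positions below) read 527.9, 436.6 and 433.0 CPM in the vehicle libraries and 977.5, 984.0 and 983.5 CPM under Tg. The groups were far apart, with vehicle library 1 the highest of its group. The fold was 2.11 (log2 fold change 1.08 ± 0.07 SE, adjusted p = 4.1e-14). GENCODE v44 lists 4 ATF4 pseudogenes, and how the authors' counting shared reads between near-identical copies is not given in the sources used here.

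DDIT3 (chr12:57516588-57521737, minus strand) encodes CHOP, which promotes cell death under prolonged ER stress. It read 8.4, 8.28 and 6.89 CPM in vehicle and 89.5, 103.1 and 97.4 CPM under Tg. No library of 1 group came near the other. It rose 12.3-fold (log2 fold change 3.62 ± 0.18, adjusted p = 3.52e-17). TRIB3 (chr20:362835-397559, plus strand) read 33.3, 21.3 and 26.2 CPM in vehicle and 404.9, 387.8 and 401.1 CPM under Tg, a 14.78-fold rise (3.89 ± 0.12, adjusted p = 4.29e-22). The vehicle libraries of TRIB3 were spread more widely than its Tg libraries relative to their mean.

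Both C/EBP partners rose under Tg. CEBPB, which encodes activating and inhibitory forms of C/EBPβ from 1 exon, read 6.07, 3.99 and 5.25 CPM in vehicle and 33.5, 36.9 and 31.4 CPM under Tg (log2 fold change 2.73 ± 0.18, adjusted p = 5.84e-14). CEBPG (chr19:33373685-33382686, plus strand), which lacks a strong activation domain of its own, read 27.6, 38.6 and 43.7 CPM in vehicle and 134.6, 127.2 and 124.9 CPM under Tg (1.81 ± 0.12, adjusted p = 2.25e-14). For CEBPG, vehicle library 1 was the low one, whereas it was the high vehicle library for ATF4, TRIB3 and CEBPB. In the annotation CEBPB (chr20:50190830-50192668, plus strand) shares 669 bases with the antisense gene CEBPB-AS1. The counts of both genes were fractional in all 33 libraries while their sum was whole, so reads were shared between them. CEBPB-AS1 was at 2.23 ± 0.60 CPM in vehicle and 9.38 ± 0.18 under Tg. Without strand information, reads of the 2 genes cannot be told apart.

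ATF3 (chr1:212565334-212620777, plus strand), which often represses its targets, read 133.2, 121.8 and 128.2 CPM in vehicle and 305.7, 296.3 and 310.6 CPM under Tg. Its rise of 2.38-fold was close to that of ATF4 in size (log2 fold change 1.25 ± 0.08, adjusted p = 5.17e-15). NUPR1 (chr16:28532708-28539008, minus strand) was the scarcest gene of the set, with 4 to 139 reads a library. Its vehicle libraries were at 0.416, 0.57 and 0.689 CPM and its Tg libraries at 3.77, 3.77 and 3.3 CPM, with no overlap (2.68 ± 0.39, adjusted p = 1.89e-06).

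ATF5 (chr19:49928702-49933935, plus strand) did not pass the test in any comparison. It read 11.6, 10.7 and 10.3 CPM in vehicle and 8.96, 12.1 and 10.6 CPM under Tg, so 1 Tg library lay above the vehicle libraries and 1 below. The log2 difference was -0.04, with a 95% interval of -0.3 to 0.22 (adjusted p = 0.85). ATF5 is best known for guiding the response to mitochondrial protein stress, and like ATF4 it is controlled by upstream reading frames during translation. The upper bound of its interval lies below the lower bound of the interval of ATF4, 0.93.

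At the higher AA132 doses 6 of the 8 genes were called higher than in vehicle, with smaller fitted changes than under Tg. In the edgeR fit with the low-count filter, no gene of the set passed the test at 0.1, 0.3 or 1 µM, nor did any other gene tested (0% called higher at each dose). With an unadjusted p under 0.05, edgeR gave 796, 981 and 1057 genes at these doses, and 1, 1 and 2 genes of the set. These were CEBPG at each dose and ATF3 at 1 µM. DESeq2 called 1, 6 and 0 genes at these doses, none of them in the set. At 3 µM the count was again 0 of 8, with 0.101% of genes called higher and 1635 genes at an unadjusted p under 0.05. DDIT3, ATF3, CEBPB, CEBPG and TRIB3 were the 5 genes of the set among these, and DESeq2 called CEBPG (adjusted p = 0.00666).

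At 6 µM, 4 of the 8 genes were called higher (DDIT3, ATF3, CEBPG and TRIB3), against 0.866% of genes tested. The same 4 were called at 10 µM, against 1.03%. ATF4 and CEBPB joined them at 15 µM, giving 6 of 8 against 1.97%, and the same 6 were called at 30 µM, against 3.86%. The lower marker sums given above, of other cells (nearly all COL1A1) from 6 µM and of HEK293T at 30 µM, stand beside these counts. The part of the marker sums in these counts was not tested. For 0.3, 3, 10, 15 and 30 µM in turn, the median log2 fold change of the 8 genes was 0.03, 0.28, 0.58, 0.76 and 0.57, with medians over all genes between -0.002 and 0.01. All dose comparisons share the 3 vehicle libraries. With only the 2 conditions compared in the fit, DDIT3 alone was called at 6 and 10 µM, DDIT3 and ATF3 were called at 15 µM, and 30 µM added TRIB3.

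**Figure D2:**
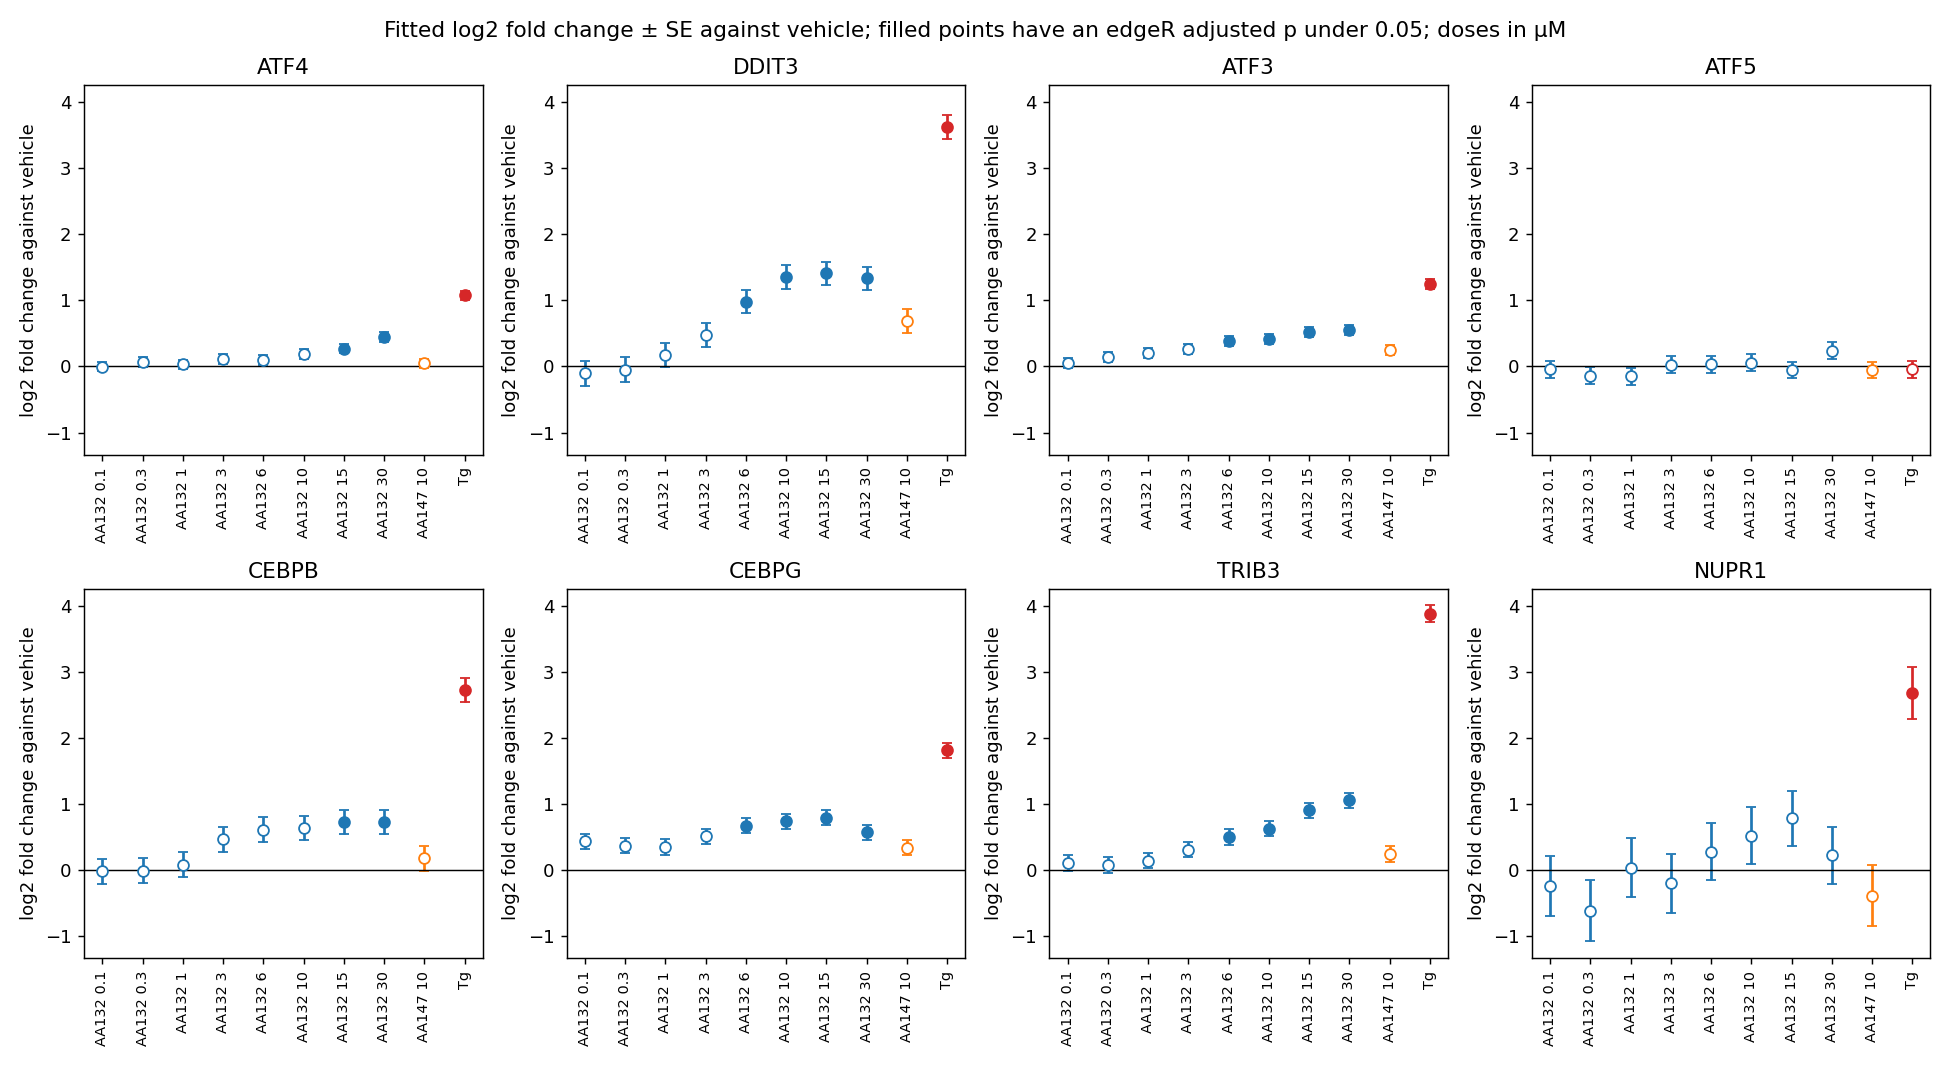
Fitted log2 fold change against vehicle (± SE) for each of the 8 genes under AA132, AA147 (doses in µM) and Tg. Filled points passed the edgeR test at an adjusted p of 0.05. DDIT3 lies between 1.34 and 1.41 from 10 to 30 µM AA132, while TRIB3 and ATF4 are highest at 30 µM among the AA132 doses.

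DDIT3 was the gene of the set with the largest log2 fold change at every AA132 dose from 6 µM up, and its means at 10, 15 and 30 µM were close together. At 3 µM its lowest library read 8.52 CPM, and the libraries with 6 µM read 14.3, 15.4 and 16.8 CPM. Those with 10 µM read 23.4, 18.4 and 18.3 CPM. From 3 µM on, every library lay above the vehicle libraries. They read 21.4, 20.0 and 21.2 CPM at 15 µM, and 19.6, 19.0 and 20.8 CPM for the highest dose. The libraries at 10, 15 and 30 µM overlapped, and all 9 lay above those at 6 µM. The log2 fold change was 0.98 ± 0.18 at 6 µM (adjusted p = 0.00138) and 1.35 ± 0.18 at 10 µM (1.41e-05). For 15 and 30 µM it was 1.41 ± 0.18 (3.22e-06) and 1.34 ± 0.18 (4.55e-06). Without the filter on low counts DDIT3 was also called at 3 µM (0.48, 0.0121). That fit gave it a smaller SE, 0.115 against 0.18 with the filter. Between 30 and 10 µM the difference was -0.02, with a 95% interval of -0.36 to 0.32. The highest library outside Tg, at 23.4 CPM, stayed well under the lowest Tg library, at 89.5 CPM.

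The mean of TRIB3 was higher at each AA132 dose from 1 µM up than at the dose before. Its libraries read 38.2, 36.5 and 39.8 CPM at 6 µM and 30.4, 47.7 and 46.7 CPM for 10 µM. They read 48.2, 53.5 and 49.9 CPM at 15 µM and 55.8, 54.9 and 57.3 CPM for 30 µM. Library 1 at 10 µM lay inside the vehicle range, while every library at 6, 15 and 30 µM lay above it. Its log2 fold change against vehicle was 0.50 ± 0.12 at 6 µM (adjusted p = 0.0188) and 0.63 ± 0.12 at 10 µM (0.0013). It was 0.91 ± 0.12 with 15 µM (3.9e-06) and 1.06 ± 0.12 with 30 µM (1.45e-07). The call at 6 µM was lost without 6 µM library 1 (0.0764) or 3 (0.0976) and without vehicle library 2 (0.107) or 3 (0.0735). Without vehicle library 1, TRIB3 was also called at 3 µM (0.49, adjusted p = 0.034).

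ATF4 moved least among the genes called. Its libraries were at 530.8, 565.0 and 591.1 CPM at 15 µM and at 606.7, 602.9 and 693.3 CPM at 30 µM. All of these lay above the vehicle libraries, although the lowest at 15 µM exceeded vehicle library 1 by under 3 CPM. The log2 fold change was 0.27 ± 0.07 at 15 µM (adjusted p = 0.026) and 0.45 ± 0.07 at 30 µM (8.62e-05), against 0.19 ± 0.07 at 10 µM (0.206). The 15 µM call was lost without 15 µM library 2 (0.0911) or 3 (0.141) or vehicle library 2 (0.0938) or 3 (0.11). At 10 µM it was gained without vehicle library 1 (0.29, adjusted p = 0.0129).

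ATF3 rose in small steps. Its mean was 127.7 ± 5.71 CPM in vehicle and 152.7 ± 11.3 at 3 µM. For 6, 10, 15 and 30 µM in turn it was 166.9 ± 5.43, 170.6 ± 23.0, 183.6 ± 9.44 and 187.3 ± 13.6 CPM. Neighbouring doses overlapped throughout, and from 0.3 µM on every library lay above the vehicle libraries. The log2 fold change was 0.39 ± 0.08 at 6 µM (adjusted p = 0.00363) and 0.55 ± 0.08 at 30 µM (8.18e-06).

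CEBPB read 9.1, 9.09 and 7.28 CPM at 15 µM and 10.3, 7.6 and 7.58 CPM at 30 µM, all above the vehicle libraries. Its log2 fold change was 0.74 ± 0.18 at 15 µM and 0.73 ± 0.18 at 30 µM (adjusted p = 0.0207 and 0.0114). The 15 µM call was lost without 15 µM library 1 (0.0915) or 2 (0.0875) or vehicle library 2 (0.0799), and the 30 µM call without 30 µM library 1 (0.106) or vehicle library 2 (0.0682). With the reads of CEBPB and CEBPB-AS1 summed, an alternative chosen after seeing the data, the value at 15 µM was 0.46 (adjusted p = 0.104). Leaving out vehicle library 1 gained a call for CEBPB at 6 µM (0.76, 0.0298) and 10 µM (0.79, 0.0215), and leaving out 10 µM library 1 gained the latter too (0.78, 0.0262). DESeq2 also called CEBPB with 6 µM (0.0348) and 10 µM (0.02), as did edgeR without the low-count filter (0.00279 and 0.0013). The unfiltered fit had a smaller SE for CEBPB at 6 µM, 0.141 against 0.184.

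CEBPG lay above vehicle from the lowest dose on. It read 50.5, 52.4 and 46.3 CPM already at 0.1 µM, all above the vehicle libraries (27.6, 38.6 and 43.7 CPM). All 30 treated libraries, AA147 and Tg included, lay above all 3 vehicle libraries, the lowest by 0.278 CPM, and 0.0337% of genes tested share that order (6 of 17793). At 0.1 µM the log2 difference was 0.44 ± 0.12, with an unadjusted p of 0.000592 and an adjusted p of 0.987, so it did not pass the test. Without vehicle library 1 the difference was 0.27. Without the filter on low counts edgeR called CEBPG at 0.1 µM (0.00084), 0.3 µM (0.0268) and 1 µM (0.0388) too. That fit also estimated the spread differently, with an SE of 0.086 at 0.1 µM against 0.115 in the filtered fit. These calls therefore do not rest on the filter alone. In the filtered fit it was called at 6 µM (0.67 ± 0.12, adjusted p = 0.000858) and 10 µM (0.74 ± 0.12, 0.000166). It was also called at 15 µM (0.80 ± 0.12, 3.52e-05) and 30 µM (0.58 ± 0.12, 0.00153). These calls include the difference from vehicle already present at 0.1 µM. The 30 µM libraries, at 49.9, 60.7 and 53.6 CPM, overlapped those at 0.1 µM. At 3 µM CEBPG came close (0.52 ± 0.12, adjusted p = 0.0569), and passed without 3 µM library 3 (0.0128) or vehicle library 3 (0.0315).

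NUPR1 and ATF5 were called at no AA132 dose. NUPR1 was at 1.14, 1.15 and 0.605 CPM at 15 µM, with 2 libraries above vehicle and 1 within its range (log2 difference 0.79, 95% interval -0.06 to 1.64). Its interval at 30 µM, -0.66 to 1.11, spans both directions. ATF5 was at 12.4, 12.9 and 13.1 CPM at 30 µM, the highest mean of the 11 conditions, with all libraries above vehicle (0.24, 95% interval -0.02 to 0.49, adjusted p = 0.292).

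The question of dose was also tested as a slope over the 24 AA132 libraries, without vehicle, in log2 units per 10-fold dose. The slope was positive and called for 7 of 8 genes, where 9.83% of 17554 genes had a called positive slope. DDIT3 had the steepest slope, 0.72 ± 0.06 (adjusted p = 8.08e-11). NUPR1 was at 0.41 ± 0.13 (0.0223), TRIB3 at 0.40 ± 0.04 (1.35e-08) and CEBPB at 0.37 ± 0.06 (1.03e-05). The 95% interval of NUPR1, 0.15 to 0.68, holds the slopes of TRIB3 and CEBPB, so these genes cannot be ranked. With single libraries left out the adjusted p of NUPR1 reached 0.0481. The mean of NUPR1 was 0.966 CPM at 15 µM and 0.656 CPM at 30 µM. ATF3 was at 0.21 ± 0.02, CEBPG at 0.15 ± 0.03 and ATF4 at 0.15 ± 0.02. ATF5 was at 0.10 ± 0.04 and missed the threshold (adjusted p = 0.0626), which it passed without library 1 at 0.1, 10 or 15 µM or library 3 at 15 µM (0.0271 to 0.0351). DESeq2, with all libraries, called it (0.0495).

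Raising AA132 from 10 to 30 µM gave no call among the 8 genes, against 0.337% of genes called higher and 2412 genes at an unadjusted p under 0.05, where ATF4 and TRIB3 were. TRIB3 had all 3 libraries at 30 µM above those at 10 µM (log2 difference 0.43, 95% interval 0.2 to 0.66, adjusted p = 0.0558), as did ATF4 (0.26, 0.11 to 0.4, 0.066). DESeq2 called both genes (0.0147 and 0.0249). TRIB3 was also called by edgeR without 10 µM library 2 (0.54, 0.0221), and was at 0.25 without 10 µM library 1. For CEBPG the difference was -0.16, with an interval of -0.39 to 0.07, and between -0.27 and -0.06 with single libraries left out.

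AA147 and AA132 could be compared at 1 matched dose, 10 µM. Under AA147 no gene of the set passed the test against vehicle, where 0.00562% of genes were called higher and 1211 had an unadjusted p under 0.05. DDIT3, ATF3, CEBPG and TRIB3 were the 4 genes of the set among these, and DESeq2 called none of the 8. Without the filter on low counts edgeR called DDIT3 and CEBPG, in a fit with smaller SEs (for DDIT3 0.114 against 0.178). DDIT3 read 18.3, 10.7 and 9.0 CPM, all above vehicle, with library 1 well above the others (log2 difference 0.69, 95% interval 0.33 to 1.05, adjusted p = 0.25). Without library 1 it was 0.32. ATF3 differed by 0.25 (0.09 to 0.4), CEBPG by 0.34 (0.1 to 0.57) and TRIB3 by 0.25 (0.01 to 0.48). CEBPG was at 0.17 without vehicle library 1. TRIB3 was at 0.10 without vehicle library 2 and 0.43 without vehicle library 1. ATF4, at 493.6, 455.2 and 495.4 CPM, lay within the vehicle range, with an interval of -0.1 to 0.19.

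Directly compared at 10 µM, none of the 8 genes was called between AA132 and AA147, against 0.0562% of genes called higher under AA132 and 1425 genes at an unadjusted p under 0.05. That includes 6 of the set, and all 8 differences were positive. DDIT3 was 1.58-fold higher under AA132 (log2 difference 0.66, 95% interval 0.32 to 1.01, adjusted p = 0.143), although AA147 library 1, at 18.3 CPM, reached the lowest AA132 libraries. Without that library the difference was 1.03 and passed (0.00234). Without the filter on low counts DDIT3 (1.89e-06), CEBPG (0.00224) and TRIB3 (0.0054) passed. The SEs of these genes were smaller in that fit, for DDIT3 0.108 against 0.17, although the same outlying AA147 library was in it. The difference was 0.40 for CEBPG (0.17 to 0.63, adjusted p = 0.237), 0.38 for TRIB3 (0.15 to 0.61, 0.295) and 0.46 for CEBPB (0.09 to 0.84, 0.458). Without AA132 10 µM library 1, TRIB3 (0.56, 0.00609) and CEBPG (0.51, 0.046) passed. For ATF3 it was 0.17 (0.02 to 0.33), for NUPR1 0.91 (0.01 to 1.81) and for ATF5 0.11 (-0.15 to 0.37). With single libraries left out, NUPR1 ran from 0.45 (without AA147 library 3) to 1.89 (without AA147 library 1), and CEBPB was at 0.21 without AA132 library 2. ATF3 was at 0.28 without AA132 library 1, 0.11 without AA147 library 1 and 0.10 without AA132 library 3, and ATF5 ran from 0.01 to 0.23. The upper bound for DDIT3 is about 2-fold, so a missed threshold does not show that the compounds act alike.

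**Figure D3:**
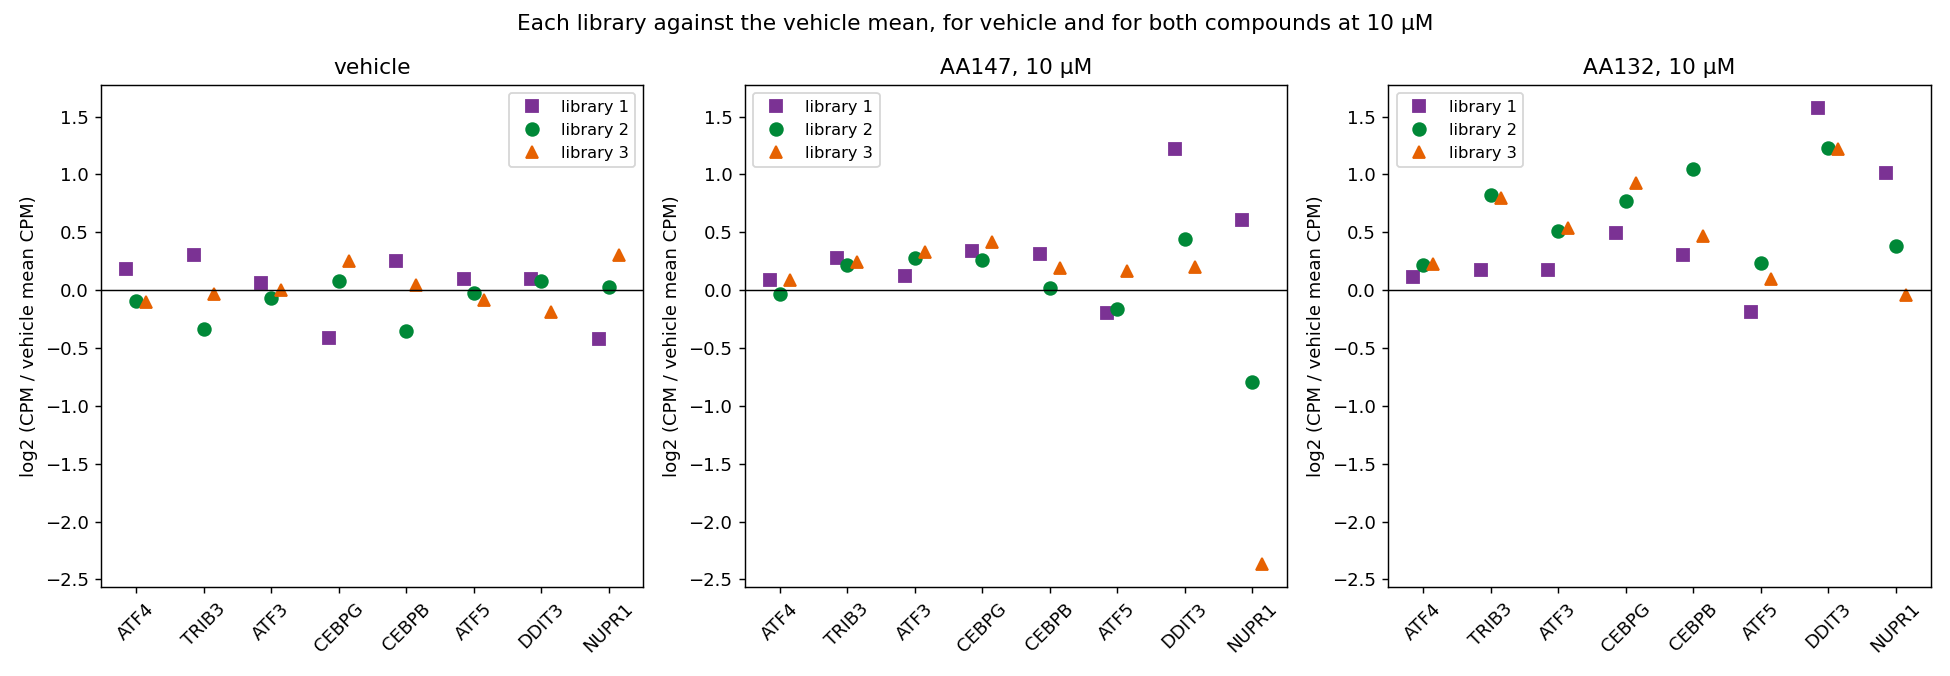
Each library's log2 ratio to the vehicle mean for the 8 genes, in vehicle, AA147 at 10 µM and AA132 at 10 µM; squares, circles and triangles are libraries 1, 2 and 3. AA147 library 1 is the highest for DDIT3 and NUPR1, and AA132 library 1 is the highest for these genes and the lowest for the other 6.

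The libraries of a condition did not order the genes alike, as the plot of single libraries shows. AA132 10 µM library 1 was the highest of its group for DDIT3 (23.4 CPM) and NUPR1 (1.12 against 0.729 and 0.543 CPM). The same library was the lowest for ATF4, TRIB3, ATF3 (144.1 against 182.2 and 185.6 CPM), CEBPG, CEBPB and ATF5. AA147 library 1 was likewise the highest for DDIT3 and for NUPR1, at 0.847 against 0.323 and 0.108 CPM, and by less for TRIB3 and CEBPB.

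Ordered by mean level, most neighbouring conditions had overlapping libraries. TRIB3 separated best, with 4 of its 10 neighbouring pairs apart, and ATF5 had none apart. For ATF4 only 15 µM from 30 µM AA132, and 30 µM from Tg, were apart. For ATF3, CEBPB and NUPR1 only 1 pair was apart, Tg and the condition next below it.

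A list of 29 genes described as targets of ATF4 or CHOP, all of which passed the filter on low counts, was counted beside the 8 factors. Under Tg 28 were higher, against 16.2% of all genes tested, and none lower, with a median log2 fold change of 1.67. They included the cystine transporter SLC7A11 (3.65 ± 0.3), the cystathionine enzyme CTH (3.13 ± 0.14), the glutathione-degrading enzyme CHAC1 (2.87 ± 0.15), asparagine synthetase ASNS (1.90 ± 0.07) and the eIF2α phosphatase subunit PPP1R15A (1.64 ± 0.09). The exception was the ER oxidase gene ERO1A, at 0.09 ± 0.07 (adjusted p = 0.37).

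Under AA132 the number of these targets called higher was 0 at 0.1, 0.3 and 1 µM. For 3, 6, 10, 15 and 30 µM in turn it was 1, 7, 14, 19 and 24, against 0.101%, 0.866%, 1.03%, 1.97% and 3.86% of all genes tested, with none lower at any dose. The list's median log2 fold change went from 0.06 at 0.1 µM to 0.22 at 6 µM, 0.32 at 10 µM and 0.53 at 30 µM, against 0.01 or less over all genes. The target called at 3 µM was STC2 (0.48 ± 0.1, adjusted p = 0.0351), a secreted glycoprotein. Its mean was 17.2 CPM in vehicle, 22.3 CPM at 0.1 µM and 24.0 CPM at 3 µM. Most of its difference from vehicle was thus present at 0.1 µM (0.38 ± 0.1), where it was not called. At 6 µM the 7 were STC2, SLC7A11 (1.49 ± 0.3), SLC7A5, SLC3A2 (0.75 ± 0.13), the glycine transporter SLC6A9 (1.09 ± 0.15), the death receptor TNFRSF10B and the transaminase GPT2, of which 4 encode amino acid transporters or their subunits. At 30 µM SLC7A11 stood at 2.77 ± 0.3, SLC6A9 at 1.87 ± 0.15, SLC3A2 at 1.36 ± 0.13, CHAC1 at 1.23 ± 0.15 and CTH at 1.00 ± 0.14. SLC3A2, the heavy chain partner of SLC7A11 and SLC7A5, had about the same mean at 30 µM AA132 (532.0 ± 28.8 CPM) as under Tg (529.5 ± 19.7 CPM). STC2, by contrast, was at 29.1 CPM at 30 µM AA132 and 139.7 CPM under Tg. FGF21, a stress hormone, rose under Tg (3.76 ± 0.4) and was at -0.23 ± 0.48 at 30 µM AA132 (adjusted p = 0.838).

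**Figure D4:**
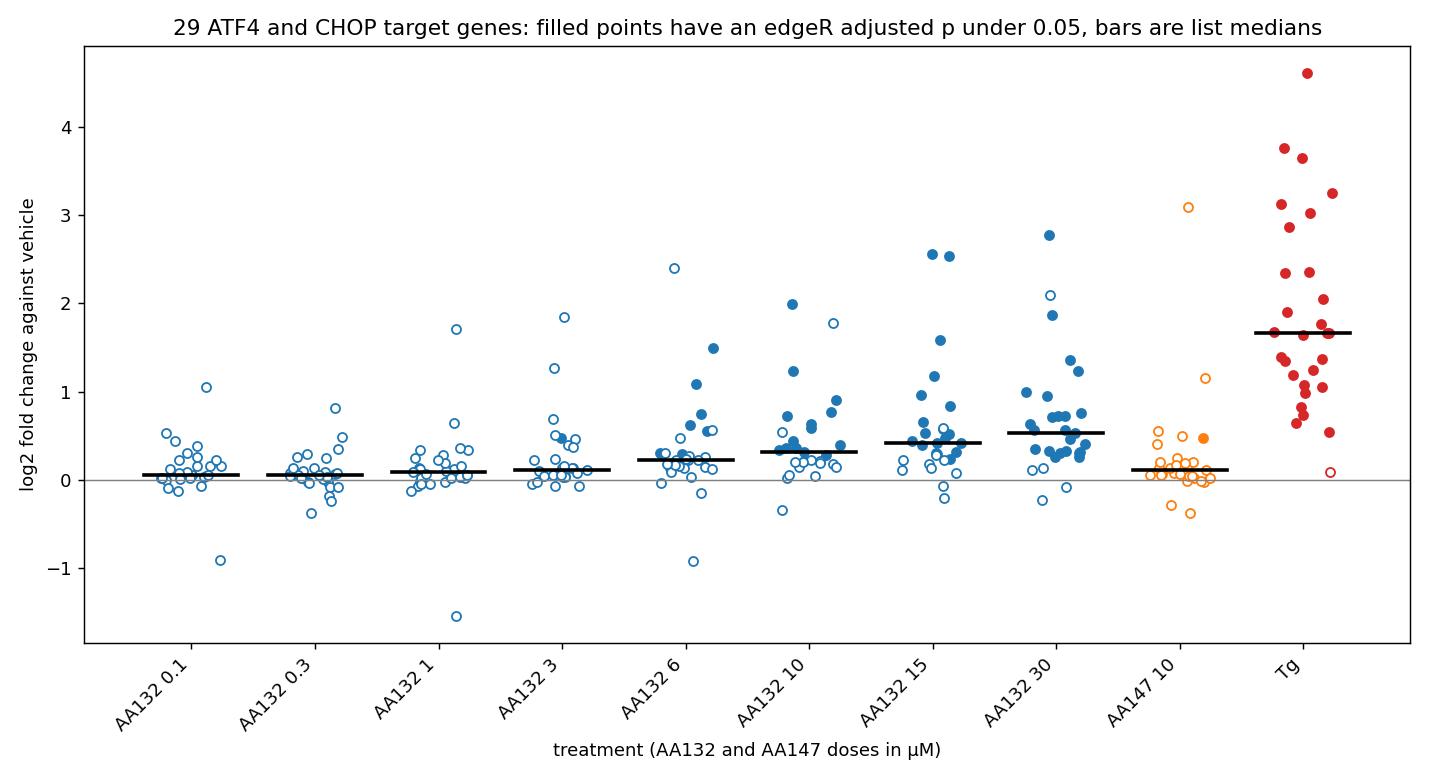
Log2 fold change against vehicle of 29 target genes of ATF4 and CHOP under AA132, AA147 (doses in µM) and Tg. Points are genes, filled where the edgeR adjusted p was under 0.05, and bars are list medians, which run from 0.06 at 0.1 µM AA132 to 0.53 at 30 µM and 1.67 under Tg.

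Under AA147 1 target was called higher, against 0.00562% of all genes, and the list's median was 0.11. That target was the leucine transporter SLC7A5 (0.48 ± 0.09, adjusted p = 0.0279). SLC7A5 was at 60.3 CPM in vehicle, 84.3 CPM under AA147 and 74.8 CPM at 0.1 µM AA132 (0.31 ± 0.09, not called). For this gene all 30 treated libraries lay above all 3 vehicle libraries, which every comparison with vehicle shares. Between the compounds at 10 µM, ASNS was the 1 target called, against 0.0562% of all genes, at 254.0 ± 27.6 CPM under AA132 and 196.1 ± 7.87 under AA147 (0.37, adjusted p = 0.0177), and the median was 0.20. From 10 to 30 µM AA132, 4 targets were called higher, against 0.337% of all genes: ASNS (0.28, 0.0385), the mTORC1 regulator SESN2 (0.36, 0.0404), the serine synthesis enzyme PSAT1 (0.26, 0.0471) and SLC6A9 (0.63, 0.0292).

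Of 7 genes that act upstream of ATF4, 3 were higher under Tg, where 16.2% of all genes were: EIF2AK3, which encodes the kinase PERK (1.52 ± 0.07), and the phosphatase subunits PPP1R15A, which is in the target list too, and PPP1R15B (0.37 ± 0.09). The other eIF2α kinase genes, EIF2AK1, EIF2AK2 and EIF2AK4, were between -0.01 and 0.16 and not called. At 30 µM AA132, with 3.86% of all genes higher, the phosphatase subunit genes were called, PPP1R15A at 0.33 ± 0.09 (adjusted p = 0.0193) and PPP1R15B at 0.29 ± 0.09 (0.0447). EIF2AK3 was called at 6 µM (0.33 ± 0.07, 0.0114) and 15 µM (0.30 ± 0.07, 0.0161), and was at 0.15 ± 0.07 at 30 µM (0.213).

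Related bZIP families were counted as well. Of the other C/EBP genes 3 of 4 passed the low-count filter, and the 1 call against vehicle was a lower CEBPZ under Tg (-0.24 ± 0.07, adjusted p = 0.00633), a gene that shares the family name but not its bZIP domain. Under Tg, 8 of 14 other ATF and CREB genes were higher, against 16.2% of all genes, led by XBP1 (2.24 ± 0.1), the transcription factor spliced by IRE1, CREB3L2 (1.79 ± 0.16) and CREB3L4 (1.09 ± 0.11). At 30 µM AA132 3 of them were, against 3.86%: XBP1 (0.72 ± 0.1), CREM (0.28 ± 0.07) and ATF6 (0.20 ± 0.06). Of 19 AP-1 and other bZIP genes, 5 were higher under Tg, among them JDP2 (1.77 ± 0.19), which is in the target list too, and FOS (0.95 ± 0.19). Lower under Tg were 2, JUN (-0.36 ± 0.07) and DBP (-0.52 ± 0.2). These counts are near the shares of all genes, 16.2% higher and 15% lower. At 6 µM AA132 2 of the 19 were higher, JUN and FOSL1 (0.73 ± 0.18, adjusted p = 0.0336), against 0.866% of all genes. FOS was lower (-0.88 ± 0.21, 0.0264), against 0.202% of all genes. At 10, 15 and 30 µM the number higher was 2, 1 and 1, against 1.03%, 1.97% and 3.86%, with none lower. JUN, the core AP-1 subunit, was higher at 6, 10 and 15 µM AA132, at 0.45, 0.41 and 0.36 with an SE of 0.07 each (adjusted p = 0.000308, 0.000486 and 0.00207). At 30 µM JUN was at 0.22 ± 0.07 (0.0533). Among relatives of TRIB3, TRIB2 was lower under Tg (-0.41 ± 0.08, 6.7e-05) and at 30 µM AA132 (-0.31 ± 0.08, 0.00849), and TRIB1 was not called. NUPR2 was below the low-count filter.

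The genes whose condition means followed each factor most closely were found over the 10 conditions other than Tg, among 5847 genes with a range of at least 0.5 log2 units. The values are Pearson correlations across conditions that share the same vehicle and library preparation, given as descriptions. Each was picked as the highest among these many genes over only 10 condition means. How high unrelated genes would reach was not tested. ATF4 and ATF5 themselves ranged over 0.45 and 0.39 log2 units, less than was asked of the other genes. ATF4 was followed about equally by SESN2 (r = 0.966, and 0.989 with Tg included), FAM189A2 (0.965, 0.944 with Tg) and LOC102606465 (0.963, 0.976 with Tg). DDIT3 was followed by the ER chaperone cofactor DNAJB11 (0.994, 0.998 with Tg) and TRIM5 (0.989, 0.985 with Tg). Next came HMOX1, the haem oxygenase gene, at 0.987, or 0.42 with Tg included. ATF3 was followed by TNFRSF10D (0.993, -0.181 with Tg), the ER degradation gene HERPUD1 (0.99, 0.978 with Tg) and GCLC (0.989, 0.9 with Tg). TRIB3 was followed by SLC6A9 (0.994, 0.939 with Tg), the tRNA exporter gene XPOT (0.989, 0.991 with Tg) and TUBB3 (0.988, -0.051 with Tg). CEBPB was followed by ZC3H8 (0.986, 0.839 with Tg), LURAP1L (0.983, 0.956 with Tg) and CRELD2 (0.981, 0.997 with Tg). The best matches were lower for CEBPG (FAM161B, 0.944, and 0.65 with Tg), ATF5 (C5orf45, 0.899, and 0.743 with Tg) and NUPR1 (MIR6834, 0.896, and -0.289 with Tg). For CEBPG, ATF5 and NUPR1 only the closest gene is named, and the third closest were near it, at 0.94, 0.887 and 0.885. Within the set, ATF4 and TRIB3 had r = 0.95 without Tg, DDIT3 and ATF3 0.95, and ATF4 and CEBPG 0.61.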

How the data were processed

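RNA sequencing of 11 treatments was analysed, with 3 libraries each and 32.27 to 37.96 M counts per library. The deposited table holds the authors' expected counts for each gene, unscaled. The genome build was GRCh38.p7, per the submitters' processing notes. The aligner, counter, annotation and use of strand are not given in the sources used here. The value 0.009 filled 43.51% of cells and was set to 0. Of 38074 entries, 98 sharing 45 names were summed, which left 38021 genes. Values, 3.202% of them fractional beyond 0.002, were rounded for tests.

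CPM used edgeR's TMM scaling. All 11 conditions entered 1 edgeR quasi-likelihood fit (edgeR 4.0.16, limma 3.58.1, R 4.3.3) after its low-count filter. All 8 members were among the 17793 genes kept. The estimated coefficient of variation between libraries was 9.09%. Calls used a Benjamini-Hochberg adjusted p under 0.05 over all genes. The dose slope was fitted on the 24 AA132 libraries. The code was tested on simulated data. Alternatives were DESeq2 1.42.0, its size factors, no filter, fewer conditions, a replicate block, single libraries left out and, added later, CEBPB and CEBPB-AS1 summed. The members and lists were chosen with earlier results of these data known. Named genes are all 8 members, members of the lists with their values, and for each member some or all of the 3 genes most alike over the conditions without Tg. Positions and lengths are from GENCODE v44 (GRCh38) and played no part in counting.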

Additional observations from a re-analysis of the deposited data

How the results depend on the processing

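Over 1392 alternative values for the 8 genes, 42 turned direction, in 25 results, none of them called in the reported fit. Members called were the same in number with DESeq2's size factors, and, for the slope, without the 30 µM dose. Without the low-count filter the number called was 1 with 0.1, 0.3 or 1 µM AA132, 2 at 3 µM, 5 with 6 or 10 µM, 2 for AA147, 3 between the compounds and 2 between 30 and 10 µM. DESeq2 gave 1 at 3 µM, 5 with 6 or 10 µM, 2 between 30 and 10 µM and 8 for the slope. With only the 2 conditions in the fit it was 1, 1, 2 and 3 for 6, 10, 15 and 30 µM, from fewer libraries. With CEBPB and CEBPB-AS1 summed it was 5 at 15 µM. The cause of the other shifts was not tested. Over all genes, calls at 6, 10 and 30 µM were 190, 250 and 1255 in the reported fit, 360, 411 and 1305 without the filter, 346, 466 and 1669 with DESeq2, and 25, 8 and 74 with only the 2 conditions in the fit. In the same 4 fits they were 21, 153, 64 and 0 at 3 µM, 491, 703, 763 and 46 at 15 µM, 4, 82, 26 and 0 for AA147, 12, 98, 55 and 0 between the compounds, and 166, 346, 473 and 2 between 30 and 10 µM. At 0.1, 0.3 and 1 µM the unfiltered fit called 33, 25 and 46 genes, DESeq2 1, 6 and 0, and the fit of 2 conditions 0, 0 and 1. Tg had 5551 calls, and 3073 with only the 2 conditions in the fit. The slope had 3286, and 2046 without the 30 µM dose.

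Of these 42, 2 came from other choices than a library left out: ATF4 at 0.1 µM was 0.002 with only the 2 conditions in the fit, and CEBPB at 1 µM was -0.045 with CEBPB-AS1 reads added. Leaving out single libraries, members called ranged from 0 to 1 at 3 µM, 3 to 5 at 6 µM, 4 to 6 with 10 or 15 µM, 5 to 6 at 30 µM, 7 to 8 for the slope, 0 to 2 between the compounds and 0 to 1 between 30 and 10 µM. They stayed at 7 under Tg and 0 elsewhere. For Tg, the log2 difference ran from -0.147 to 0.051 for ATF5. For AA147, the log2 difference ran from -0.003 to 0.149 for ATF4, -0.174 to 0.007 for ATF5, -1.366 to 0.071 for NUPR1. For 0.1 µM, the log2 difference ran from -0.056 to 0.096 for ATF4, -0.089 to 0.009 for ATF5, -0.175 to 0.124 for CEBPB, -0.04 to 0.291 for TRIB3. For 0.3 µM, the log2 difference ran from -0.191 to 0.048 for DDIT3, -0.165 to 0.152 for CEBPB, -0.07 to 0.261 for TRIB3. For 1 µM, the log2 difference ran from -0.018 to 0.133 for ATF4, -0.02 to 0.292 for DDIT3, -0.072 to 0.226 for CEBPB, -0.006 to 0.325 for TRIB3, -0.129 to 0.221 for NUPR1. For 3 µM, the log2 difference ran from -0.012 to 0.077 for ATF5, -0.521 to 0.204 for NUPR1. For 6 µM, the log2 difference ran from -0.029 to 0.103 for ATF5. For 10 µM, the log2 difference ran from -0.042 to 0.161 for ATF5. For 15 µM, the log2 difference ran from -0.227 to 0.033 for ATF5. For 30 µM, the log2 difference ran from -0.055 to 0.433 for NUPR1. For 30 against 10 µM, the log2 difference ran from -0.078 to 0.117 for DDIT3, -0.071 to 0.346 for CEBPB, -0.58 to 0.039 for NUPR1.

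The numbers of libraries did not pair them: same-numbered libraries of different conditions had a median correlation of deviations of 0.000614, 2 of 165 pairs were over 0.1, and 13 of 33 libraries correlated best with their own number. With the replicate block, the members called stayed at 7 under Tg, 4 at 6 and 10 µM, 6 at 15 and 30 µM, 7 for the slope and 0 elsewhere. Depth limits NUPR1 most, at 4 to 139 reads.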

Other observations

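There were 6 genes with all 30 treated libraries above all 3 vehicle libraries: CEBPG, ATL3, DNAJB9, PRR3, SLC35F6 and SLC7A5. They were chosen after their values were seen. The margins were small for most of them, with the lowest treated library of DNAJB9 at 9.48 CPM and the highest vehicle library at 9.39 CPM, and those of SLC7A5 at 66.6 and 61.6 CPM. Every treatment is set against the same 3 vehicle libraries, so for these genes low vehicle values and high treated values cannot be told apart. CEBPG had the widest vehicle range of the 6 relative to its level, 27.6 to 43.7 CPM, and its mean at 0.1 µM AA132, 49.7 CPM, lay above that of vehicle, 36.7 CPM.

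CEBPB-AS1 took a varying share of the reads counted for it and CEBPB together. That share had a median of 30.77% in vehicle, 21.95% under Tg and 17.53% at 15 µM AA132, with single libraries from 12.25% to 37.75%.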
